A study of Mus musculus with 42 samples.

Results

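Gene expression was compared between iPax7 cells grown with doxycycline (Dox) and the same cells 3 days after Dox was withdrawn. Of the 42 samples of the series, 2 hold these RNA-seq data, and their deposited files separate into 5 libraries, 3 for +Dox and 2 for -Dox, out of 8 RNA libraries in all. The libraries were taken by their label and by the condition in the deposited file's name, with no use of a measured value. iPax7 cells are muscle precursors made from a mouse embryonic stem cell line that carries a Dox-inducible Pax7 transgene, sorted from embryoid bodies as PDGFRα+ Flk-1- cells. Both groups share this genotype, the sort and a growth medium with serum and basic FGF. The +Dox cells received Dox throughout, whereas the -Dox cells were washed and kept in that medium without it. The sources give the Dox concentration in units that differ from each other, so no dose is stated. Nothing in the labels says that the libraries of a condition came from separate cultures, so the p-values measure the spread between these libraries, which may be technical. The cells are 1 inducible line, and in bulk RNA fewer cells of a type and less RNA per cell cannot be told apart.

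Pax7 is a paired-box transcription factor that marks the precursors of skeletal muscle. When such precursors stop dividing and fuse into fibers, they build large membranes, store glycogen, take up fatty acids and reorganise their microtubules. The genes below are ordered by pathway: lipid synthesis, amino acid and stress response, fuel storage, nucleotide and folate supply, cytoskeleton and junctions, RNA regulators, iron, signalling and cell death.

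Pax7 (chromosome 4, 139292977 to 139389445 of NCBIM37) had 15097, 16720 and 13761 normalized counts in the +Dox libraries and 261 and 319 in the -Dox libraries. A normalized count is a read count scaled to the effective library size. The conditions did not overlap, and the log2 fold change, -Dox over +Dox, was -5.71 (SE 0.27, edgeR quasi-likelihood test, Benjamini-Hochberg adjusted p = 4.16e-05). Reads of the transgene and of the endogenous gene cannot be told apart in this count.

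Libraries held between 48203901 and 54674619 counts on genes. Of 24466 gene symbols, 13259 passed the filter on low counts. Among these, 999 were at least 2-fold higher in -Dox with an adjusted p under 0.05 (7.53%), and 951 were lower (7.17%). A gene is said below to have risen or fallen only when it passed both thresholds. The median log2 fold change of all tested genes was -0.0391. +Dox replicate 3 stood apart from the other +Dox libraries: the genes of the longest length class had a median log2 ratio of -0.58 to the mean of replicates 1 and 2, and those of the shortest class 0.478 (4 classes of equal size by exon length), whereas the same medians of replicate 2 over replicate 1 were -0.08 and 0.126. Without +Dox replicate 3, 1313 genes rose and 1404 fell. Each list below was also counted without each library, and the main losses of calls are given with it. A fit without 1 of the -Dox libraries assumes that the library left varies like those of +Dox. In such fits, 420 genes rose and 343 fell without -Dox replicate 1, and 432 rose and 374 fell without -Dox replicate 2. Of the 179 genes that are called here as members of the 31 lists or as the largest changes, 0 turned direction in any alternative fit, and 71 passed in every one. All 179 had been called in these same libraries, so the shared direction between fits is not separate support. Cell cycle genes, of which 124 of 146 tested fell, and myofiber genes, of which 81 of 92 rose, are not described further.

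The labelled cell type was checked against its markers. Myf5, a factor of muscle precursors, had 131351, 154598 and 225313 normalized counts in +Dox and 14696 and 12729 in -Dox (log2 fold change -3.64), and Myog, a factor of differentiating muscle, had 4127, 5462 and 5154 in +Dox and 190411 and 223973 in -Dox (5.40). Of the 5 skeletal myogenic markers 2 rose and 1 fell (40% and 20%), against 7.53% and 7.17% of all tested genes. The other 2 did not pass, among them Cdh15, which was present in both conditions. Of the pluripotent stem cell markers 6 of 10 were at 0 in all 5 libraries, including Pou5f1 and Nanog. So were 8 of 12 neural and 5 of 7 blood markers, Ptprc included. Over all gene symbols, 8758 of 24466 were at 0 in all 5. The summed level of the pluripotent markers ran from 280 to 349 in +Dox and from 118 to 143 in -Dox. That of the neural markers ran from 319 to 665 and from 65.3 to 278, and that of the blood markers from 187 to 549 and from 215 to 244. A 0 in these files need not be absence, since Hmgcs1 and Amd1, which growing cells use, are listed at 0 as well. The summed level of 7 smooth muscle and pericyte markers ran from 4829 to 10252 normalized counts in +Dox and from 78330 to 79458 in -Dox, where Acta2 and Tagln rose, Cnn1 fell and Myh11 was at 0 in 4 libraries. Of 6 bone markers, Dmp1 and Phex fell, and the summed level of the 6 ran from 4838 to 10101 in +Dox and from 769 to 1226 in -Dox, with Ibsp at 0 throughout. Acan fell among the 8 cartilage markers, but their summed level was higher in -Dox, at 2365 and 2371 against 1511 to 1797 in +Dox. Myh6 rose among the 7 cardiac markers, but 2 of the 3 tested were lower in both -Dox libraries than in any +Dox library. The cardiac sum ran from 590 to 978 in +Dox and from 886 to 1071 in -Dox. Of 7 endothelial markers 1 was tested and did not pass. Their sum ran from 71.9 to 199 in +Dox and from 1.09 to 26.2 in -Dox. The part of these other cell types in the results below was not tested.

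**Figure D1:**
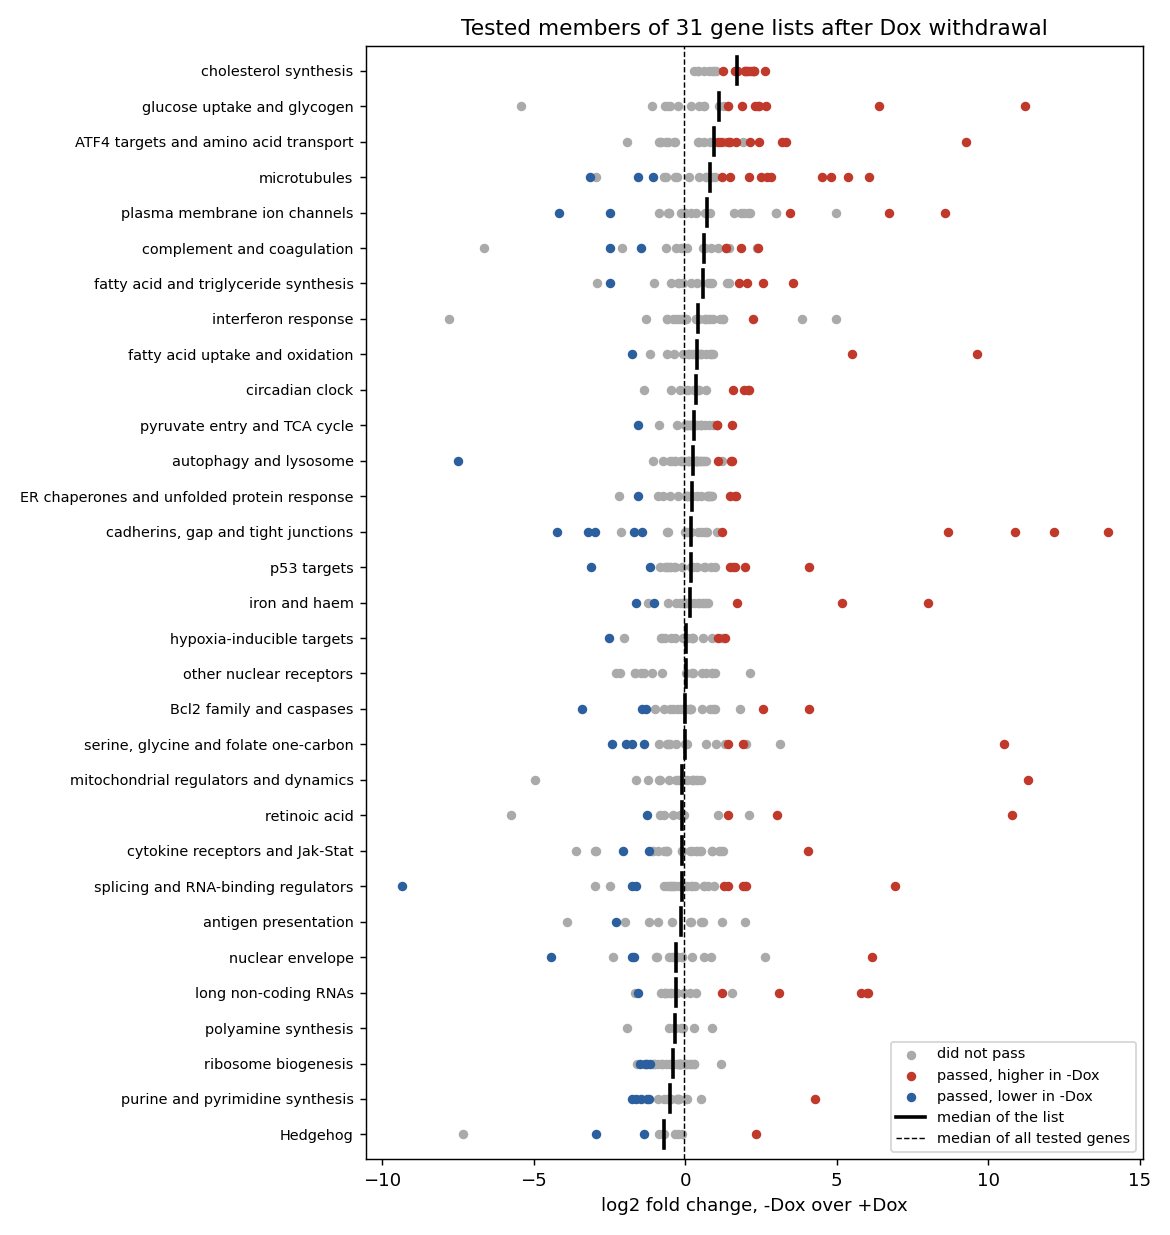
Log2 fold change, -Dox over +Dox, of every tested member of the 31 gene lists, 1 point per gene. Points in red rose, points in blue fell and grey points did not pass. The black bar is the median of a list and the dashed line the median of all tested genes, -0.0391. Cholesterol synthesis has the highest list median, 1.69, and no member below 0.

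Genes of cholesterol synthesis were higher after withdrawal along nearly the whole pathway. Of 23 tested members, 14 rose and 0 fell, which is 60.9% higher against 7.53% of all tested genes, and the list's median log2 fold change was 1.69. The conditions did not overlap for 21 of the 23, against 24.7% of all tested genes in that direction. Fdps, which makes farnesyl diphosphate (chromosome 3, 88897514 to 88905881 of NCBIM37), had 4836, 5071 and 7413 normalized counts in +Dox and 40173 and 31912 in -Dox, a log2 fold change of 2.64 (SE 0.25, adjusted p = 0.000855). Idi1, which isomerises the isoprene unit before it, had 3482, 4719 and 3831 in +Dox and 19386 and 19009 in -Dox (2.26, SE 0.21, adjusted p = 0.00073). Fdft1, which commits farnesyl units to sterols, had 5098, 5566 and 3630 in +Dox and 20268 and 22290 in -Dox (2.16). In these 3 genes both -Dox libraries were more than 2-fold above the highest +Dox library.

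The later, sterol-forming steps showed the same direction. Lss, which closes the ring, rose by a log2 fold change of 2.06, Cyp51 by 1.70, Msmo1 by 2.03, Nsdhl by 2.25, Hsd17b7 by 2.26, Sc5d by 1.98 and Dhcr7 by 1.63. Msmo1 had 5399, 6016 and 5783 normalized counts in +Dox and 24200 and 22724 in -Dox. Earlier steps were also higher, among them Acat2 (1.96), Pmvk (1.69) and Mvd (1.70).

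Not every member passed. Sqle, a control point of the pathway, had 7801, 7414 and 4682 normalized counts in +Dox and 11308 and 13440 in -Dox (log2 fold change 0.90, adjusted p = 0.062). Insig1, which holds the sterol sensor in the endoplasmic reticulum, had 1299, 1769 and 4762 in +Dox and 8789 and 7511 in -Dox (1.64, adjusted p = 0.0778). For both genes the conditions did not overlap, and +Dox replicate 3 differed most from the other +Dox libraries. Srebf2, the transcription factor of the pathway, overlapped between conditions, with 906, 1221 and 776 normalized counts in +Dox and 1028 and 1938 in -Dox. Ebp, a sterol isomerase, had a log2 fold change of 0.28 and did not pass. Hmgcs1 is listed at 0 in all libraries and was not tested. The count was 16 without +Dox replicate 3, 9 without -Dox replicate 1 and 10 without -Dox replicate 2. Hsd17b7 and Pmvk did not pass in either fit without a -Dox library.

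**Figure D2:**
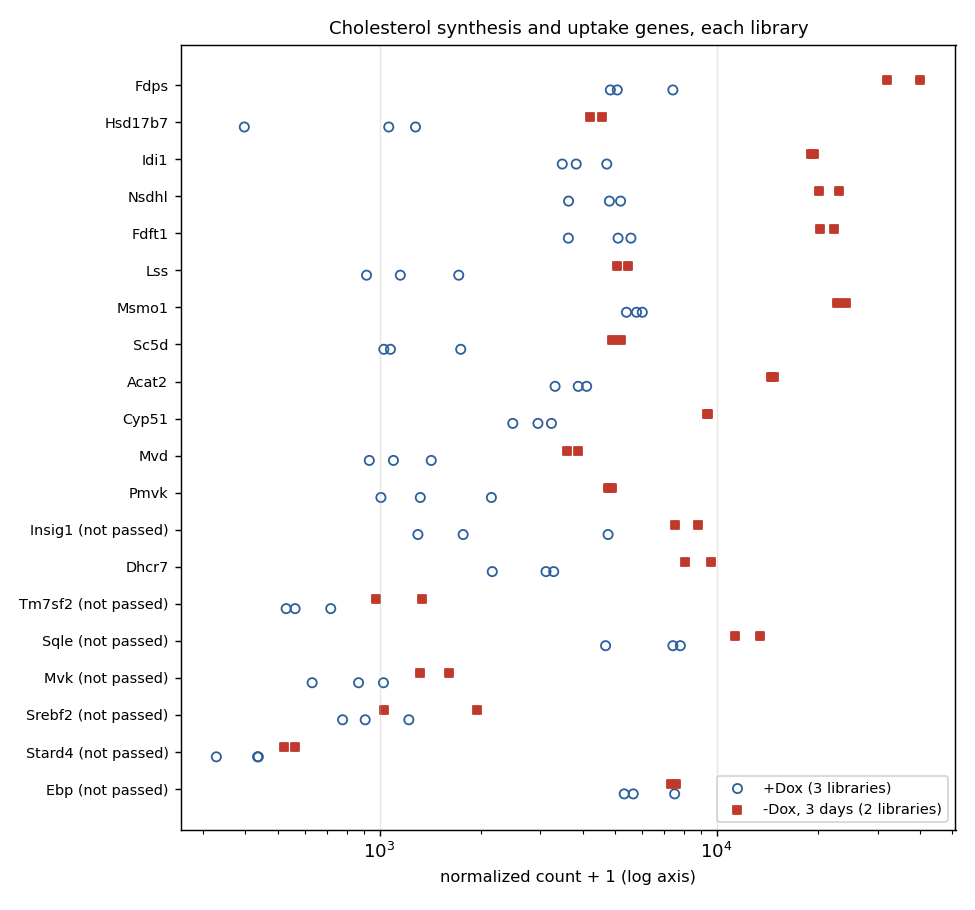
Normalized counts plus 1 (log axis) of 20 of the tested cholesterol genes in each library, ordered by log2 fold change. Open circles are the 3 +Dox libraries and filled squares the 2 -Dox libraries. The squares lie to the right of every circle in 18 of these genes, and Srebf2 and Ebp are the others.

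Fatty acid synthesis showed a narrower pattern. Of 18 tested members 4 rose and 1 fell (22.2% and 5.56%), against 7.53% and 7.17% of all tested genes. The 4 that rose were enzymes that activate or desaturate fatty acids, rather than those that build the chain. Acsl3, which attaches coenzyme A on lipid droplets and the endoplasmic reticulum, had 842, 1002 and 1392 normalized counts in +Dox and 12918 and 12249 in -Dox (log2 fold change 3.54, SE 0.27, adjusted p = 0.000341). The desaturase Scd1 had 4449, 3544 and 3280 in +Dox and 21199 and 23226 in -Dox (2.56, adjusted p = 0.000454). Its paralog Scd2 was far more abundant in reads, with 39808, 34360 and 18812 in +Dox and 124355 and 131660 in -Dox (2.05, adjusted p = 0.00546). Fads2, another desaturase, rose by 1.76, but did not pass without either -Dox library or without +Dox replicate 1 or 2. Fasn, the synthase, had 6488, 5402 and 3156 in +Dox and 6092 and 5485 in -Dox, and Acaca, which feeds it, 1764, 1906 and 373 in +Dox and 758 and 1174 in -Dox. In both genes the conditions overlapped. Agpat2, an acyltransferase of triglyceride synthesis, fell, with 1608, 1422 and 2363 in +Dox and 293 and 351 in -Dox (-2.48, adjusted p = 0.00381), and did not pass without -Dox replicate 1.

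Among 20 tested genes of fatty acid uptake and oxidation 2 rose and 1 fell (10% and 5%), near the share of all tested genes. Cd36, the fatty acid transporter of the plasma membrane, had 0, 0 and 9.71 normalized counts in +Dox and 2976 and 1886 in -Dox (log2 fold change 9.64, adjusted p = 0.00142). Fabp3, the fatty acid carrier of muscle cytosol, had 88, 186 and 248 in +Dox and 8293 and 7623 in -Dox (5.52, adjusted p = 0.00045). Both were low in all +Dox libraries and abundant in both -Dox libraries. Cpt1a, which admits fatty acids into mitochondria in many tissues, fell by 1.77 on the log2 scale (adjusted p = 0.0273), with 10453, 8119 and 4221 in +Dox and 1942 and 2525 in -Dox. It did not pass without any 1 library other than +Dox replicate 3. Cpt1b, the muscle form, had at most 1.08 normalized counts in any library and was not tested.

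Genes of the integrated stress response, in which the transcription factor ATF4 raises amino acid synthesis and transport, were higher after withdrawal. Of 27 tested members 10 rose and 0 fell (37% higher against 7.53% of all tested genes). The list's median log2 fold change was 0.95. Fgf21, a secreted hormone that stressed muscle can release (chromosome 7, 52869277 to 52870860 of NCBIM37), had 9.78, 17.5 and 1.08 normalized counts in +Dox and 7475 and 4795 in -Dox, a log2 fold change of 9.27 (SE 0.71, adjusted p = 0.000349). Chac1, which degrades glutathione, had 104, 68.3 and 142 in +Dox and 1163 and 947 in -Dox (3.33, adjusted p = 0.00257). Trib3, a pseudokinase induced by ATF4, had 64.9, 34.2 and 47.5 in +Dox and 581 and 324 in -Dox (3.21, adjusted p = 0.00946). In all 3 genes every -Dox library was above every +Dox library.

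Atf4 itself (chromosome 15, 80085614 to 80087970 of NCBIM37) had 4265, 4627 and 6358 normalized counts in +Dox and 11754 and 11312 in -Dox (log2 fold change 1.18, adjusted p = 0.0156). Ddit3, its partner in prolonged stress, rose by 1.68, Vldlr by 2.44, and the neutral amino acid transporter Slc7a5 by 2.15, from 908, 593 and 709 to 3216 and 3314. Asns, which makes asparagine, had 4638, 6002 and 4011 in +Dox and 14140 and 11892 in -Dox (1.41, adjusted p = 0.00824). The tRNA synthetases Gars and Nars rose by 1.48 and 1.07. Without -Dox replicate 1, 3 of the 10 passed (Fgf21, Chac1 and Slc7a5), without -Dox replicate 2, 6, and without +Dox replicate 2, 6. Atf4, Ddit3 and Nars did not pass in any of these 3 fits.

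The promoters of these genes were searched for the core of the C/EBP-ATF response element, the composite site through which ATF4 is known to act, written TGATGNAA, on both strands. The sequences are those of RefSeq, build GRCm38.p6, from 250 bases before to 50 bases after a gene's start, and 21 of the 27 tested members had at least 1. The core was held by 9 of these 21 genes (42.9%), against 2.65% of the 10170 tested genes with a promoter and 3.97% of all 32851 promoters. Among members that rose, 6 of 8 held it (Asns, Chac1, Fgf21, Gars, Trib3 and Vldlr), and among members that did not pass, 3 of 13 held it (Aars, Slc1a4 and Slc7a11). Of all genes that rose 4.89% held it, and of those that fell 3.45%. The list was drawn up from known targets, so the share describes the list and not what Dox withdrawal did. The 4 promoters below are those of the 3 members with the largest change and of Asns, with the core in capitals. They lie at chr7:45615441-45615740 on the reverse strand (Fgf21), chr2:119350992-119351291 on the forward strand (Chac1), chr2:152344011-152344310 on the reverse strand (Trib3) and chr6:7693160-7693459 on the reverse strand (Asns).
Fgf21: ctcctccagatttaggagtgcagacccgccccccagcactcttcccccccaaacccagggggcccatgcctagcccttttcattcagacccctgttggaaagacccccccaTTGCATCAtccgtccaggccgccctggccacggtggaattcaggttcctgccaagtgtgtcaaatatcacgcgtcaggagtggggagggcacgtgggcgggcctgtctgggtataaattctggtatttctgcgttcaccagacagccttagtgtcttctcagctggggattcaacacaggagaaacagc
Chac1: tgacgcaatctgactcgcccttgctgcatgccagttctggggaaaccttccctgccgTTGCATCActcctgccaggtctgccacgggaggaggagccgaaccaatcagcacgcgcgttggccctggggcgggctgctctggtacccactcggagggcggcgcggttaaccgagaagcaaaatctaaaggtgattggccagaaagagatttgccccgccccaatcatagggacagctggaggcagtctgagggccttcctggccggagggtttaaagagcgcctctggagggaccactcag
Trib3: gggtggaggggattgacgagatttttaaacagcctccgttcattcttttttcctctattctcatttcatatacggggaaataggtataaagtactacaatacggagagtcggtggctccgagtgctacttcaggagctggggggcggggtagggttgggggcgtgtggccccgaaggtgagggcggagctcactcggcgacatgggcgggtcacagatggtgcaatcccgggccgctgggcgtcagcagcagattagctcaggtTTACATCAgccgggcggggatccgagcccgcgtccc
Asns: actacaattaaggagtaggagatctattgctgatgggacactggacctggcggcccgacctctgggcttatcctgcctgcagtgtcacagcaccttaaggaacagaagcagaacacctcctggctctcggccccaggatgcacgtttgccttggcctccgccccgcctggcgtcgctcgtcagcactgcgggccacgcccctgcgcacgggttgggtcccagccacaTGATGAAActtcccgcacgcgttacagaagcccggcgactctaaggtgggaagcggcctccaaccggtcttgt
Counted from 1 at the 5′ end of each window, the core starts at base 112 for Fgf21, 58 for Chac1, 265 for Trib3 and 228 for Asns, and it reads on the opposite strand in all but Asns. The sterol response element type TCACNCCAC was searched for in the same way: 0 of the 16 tested cholesterol genes with a promoter held these letters in this window, against 1.37% of tested genes. Of the same 16 cholesterol genes 1, Idi1, held the C/EBP-ATF core (6.25%, against 2.65% of tested genes).

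The unfolded protein response, which refolds or removes proteins in the endoplasmic reticulum, had fewer members that passed. Of 26 tested chaperones and sensors 3 rose and 1 fell (11.5% and 3.85%), against 7.53% and 7.17% of all tested genes. Herpud1, a part of the degradation machinery of the endoplasmic reticulum, had 2905, 2807 and 3294 normalized counts in +Dox and 9832 and 9535 in -Dox (log2 fold change 1.69, adjusted p = 0.00186). The co-chaperones Dnajb9 and Dnajb11 rose by 1.64 and 1.46, but Dnajb9 did not pass without -Dox replicate 1 and Dnajb11 did not without -Dox replicate 2. The main chaperone Hspa5 had 52428, 55435 and 45824 in +Dox and 87863 and 91829 in -Dox, an adjusted p of 0.0176 at a log2 fold change of 0.81, under the 2-fold threshold. Hsp90b1 (0.38) and Xbp1 (0.83) did not pass. Pdia3, a disulfide isomerase, fell by 1.57 on the log2 scale, from 29333, 38259 and 56116 to 11222 and 16546, and did not pass without either -Dox library or without +Dox replicate 2.

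Glucose uptake and glycogen genes that passed were all higher after withdrawal. Of 21 tested members 8 rose, 0 fell and 13 did not pass (38.1% higher against 7.53% of all tested genes), with a median log2 fold change of 1.12, also with the member at 0 in +Dox set to its bound. Slc2a4, the insulin-responsive glucose transporter, had 565, 895 and 418 normalized counts in +Dox and 3549 and 3053 in -Dox (2.40, SE 0.35, adjusted p = 0.00513). Slc2a1, the transporter of growing cells, did not pass. Glycogen synthase Gys1 had 2628, 2224 and 1057 in +Dox and 9053 and 12156 in -Dox (2.43, adjusted p = 0.00722). Ugp2, which makes the UDP-glucose it uses, had 2902, 4247 and 2750 in +Dox and 21610 and 20383 in -Dox (2.67, adjusted p = 0.000752), and the primer protein Gyg had 5094, 4998 and 6166 in +Dox and 20199 and 19596 in -Dox (1.88, adjusted p = 0.0011). Pygm, the muscle phosphorylase that breaks glycogen down, rose beside these enzymes of synthesis and had 2658, 3106 and 1614 in +Dox and 12136 and 12189 in -Dox (2.31, adjusted p = 0.00295).

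The proteins that bring phosphatase to glycogen were nearly or wholly without reads in +Dox. Ppp1r3a, the muscle form, had 0 counts in all 3 +Dox libraries and 335 and 254 normalized counts in -Dox, at least 104-fold higher when each +Dox library is set to 3 counts. Ppp1r3c had 2.67, 40.3 and 1.08 in +Dox and 1454 and 1114 in -Dox (log2 fold change 6.41, adjusted p = 0.0122). Stbd1, which tethers glycogen to membranes, rose by 1.42. The tested members of this list had a median log2 ratio of +Dox replicate 3 to replicates 1 and 2 of -0.775, and without that library 8 members still rose, with 1 that fell. Without either -Dox library 5 rose. Ppp1r3c and Stbd1 passed in neither of these fits, Ppp1r3a did not without -Dox replicate 1, and Gys1 did not without -Dox replicate 2.

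**Figure D3:**
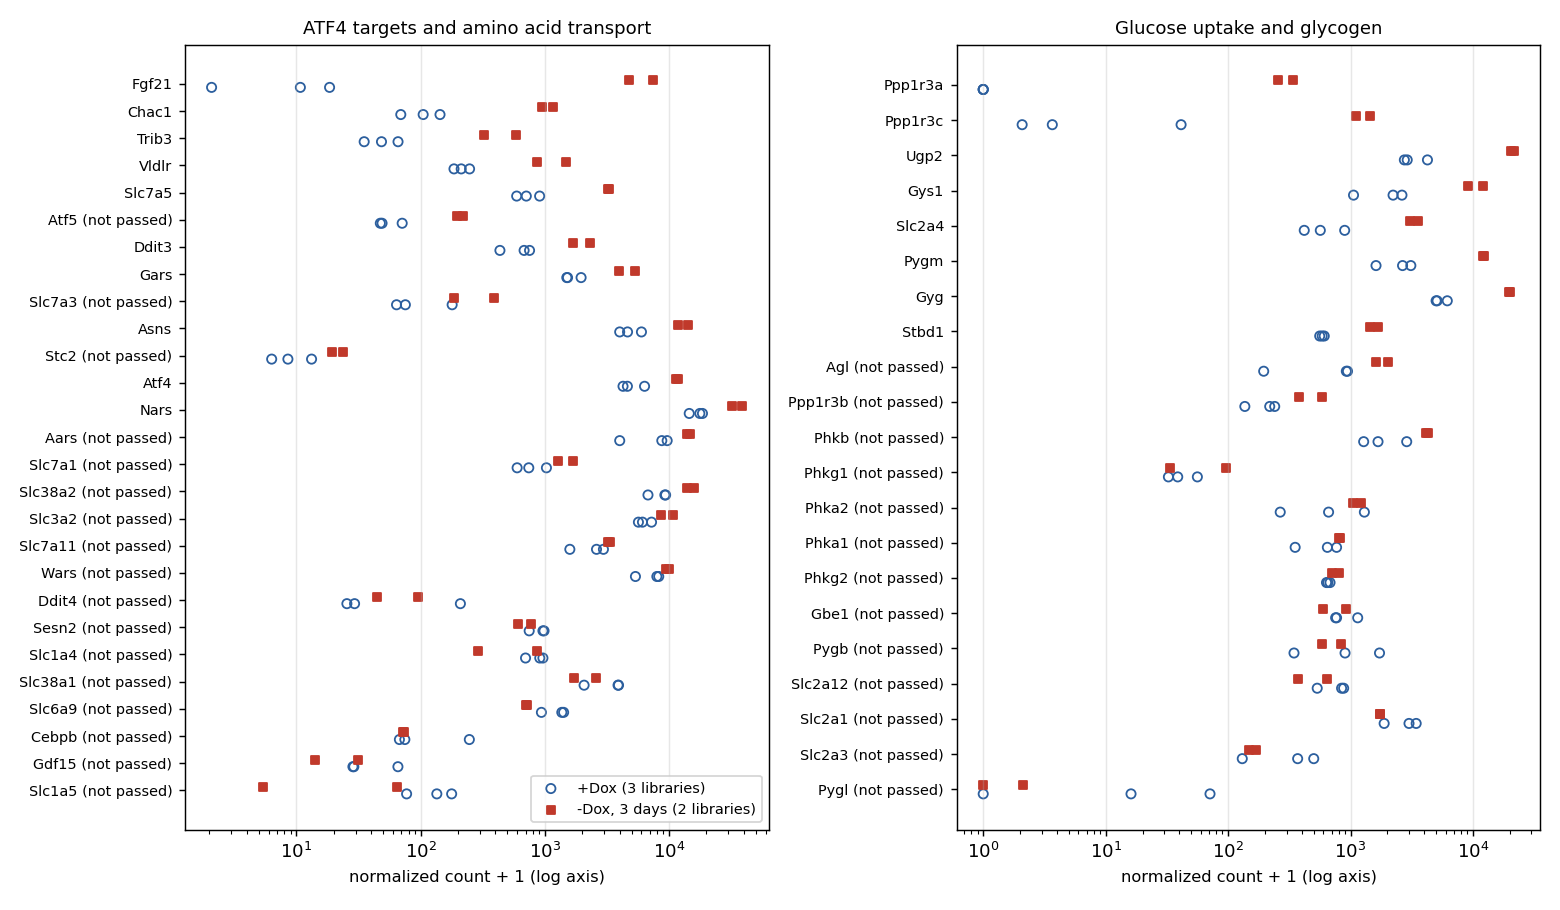
Normalized counts plus 1 (log axis) of the tested members of the ATF4 list (left) and of the glucose and glycogen list (right), with open circles for the 3 +Dox libraries and filled squares for the 2 -Dox libraries. Genes are ordered by log2 fold change, from Fgf21 (9.27) and Ppp1r3a at the top. Genes that did not pass are marked beside their names.

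Of 26 tested genes of pyruvate entry and the tricarboxylic acid cycle 3 rose and 1 fell (11.5% and 3.85%). The shares over all tested genes were 7.53% and 7.17%. Pdp1, the phosphatase that activates pyruvate dehydrogenase, rose from 795, 756 and 916 normalized counts to 2608 and 2166 (log2 fold change 1.54), while Pdhb, a subunit of that enzyme, and Mdh1, which moves reducing power into mitochondria, each rose by 1.05. Cs, Idh3a and Pdha1 had log2 fold changes of 0.30, -0.0018 and 0.77 and did not pass. Idh2, the NADP-linked isocitrate dehydrogenase, fell from 11200, 12342 and 13678 to 3279 and 5212 (-1.55, adjusted p = 0.00931). Pdhb and Mdh1 did not pass without any 1 library other than +Dox replicate 3, and Pdp1 and Idh2 did not pass without -Dox replicate 1. Of 19 mitochondrial regulators 1 rose (5.26% against 7.53% of all tested genes). This was the nuclear receptor Esrrg, with 0 counts in the +Dox libraries and 245 and 388 normalized counts in -Dox. It was at least 111-fold higher by the same floor, although it did not pass without -Dox replicate 2. Ppargc1a, Esrra and Tfam did not pass.

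Of 20 tested hypoxia-inducible genes 2 rose and 1 fell (10% and 5%), near the 7.53% and 7.17% of all tested genes. P4ha1, a collagen hydroxylase, rose by 1.33, Bnip3, a mitophagy receptor, by 1.09, and Adm, a secreted peptide, fell from 1083, 1358 and 1560 normalized counts to 295 and 168 (log2 fold change -2.52, adjusted p = 0.00563). Vegfa (-0.06) and Pdk1 (0.90) did not pass, and Car9 was too low to test. P4ha1 and Bnip3 did not pass without either -Dox library, nor Bnip3 without +Dox replicate 1 or 2, and Adm did not without -Dox replicate 2.

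Purine and pyrimidine synthesis, which supplies nucleotides to dividing cells, was lower. Of 18 tested members 5 fell and 1 rose (27.8% and 5.56%), against 7.17% and 7.53% of all tested genes. The list's median log2 fold change was -0.51. Cad, which starts pyrimidine synthesis, had 6134, 6768 and 3835 normalized counts in +Dox and 1596 and 1673 in -Dox (-1.77, SE 0.31, adjusted p = 0.00967). Umps, which ends it, had 12997, 12430 and 10572 in +Dox and 5903 and 4183 in -Dox (-1.25, adjusted p = 0.0137). Pfas, a purine enzyme, had 16196, 17978 and 19168 in +Dox and 6217 and 5438 in -Dox (-1.61, adjusted p = 0.00243). Adss, the general adenylosuccinate synthase, fell from 4013, 4455 and 3153 to 1374 and 1442 (-1.46), whereas Adssl1, its muscle counterpart, rose from 108, 187 and 229 to 2471 and 4326 (4.28, SE 0.42, adjusted p = 0.000969). The paralogs thus moved in opposite directions. Prps2, which supplies the ribose unit, fell by 1.21, and Ppat did not pass (-0.71). The calls depended on both -Dox libraries. The direction of the 5 lower genes was the same in each fit, but they had been called in these same libraries. Without -Dox replicate 1 only Pfas of the 5 passed, and without -Dox replicate 2 none of them did, while Adssl1 passed in both. Without +Dox replicate 2, 3 of the 5 passed.

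Serine and folate genes changed in both directions. Of 19 tested members 3 rose and 4 fell (15.8% and 21.1%), against 7.53% and 7.17% of all tested genes. Psat1, of serine synthesis, had 6575, 5952 and 6296 normalized counts in +Dox and 27579 and 19983 in -Dox (log2 fold change 1.92, adjusted p = 0.00136), and Mthfd2, a mitochondrial folate enzyme and known ATF4 target, 6196, 6797 and 4548 in +Dox and 15994 and 14784 in -Dox (1.40, adjusted p = 0.00762). Phgdh, the first step of serine synthesis, did not pass, at 21512, 23465 and 20574 in +Dox and 15649 and 15128 in -Dox. Shmt1, of cytosolic folate, fell from 6936, 6745 and 5336 to 1294 and 1094 (-2.41, adjusted p = 0.00121), Mthfd1, also cytosolic, by 1.37, the folate carrier Slc19a1 by 1.76 and Mthfd1l, a mitochondrial enzyme, by 1.96. Folr1, a folate receptor, had 0 counts in +Dox and 190 and 179 normalized counts in -Dox, at least 65-fold higher. Psat1 and Shmt1 passed without each library, and the other 5 did not pass without either -Dox library.

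Of 37 tested ribosome biogenesis genes 4 fell and 0 rose (10.8% lower against 7.17% of all tested genes). The list's median log2 fold change was -0.41. Tcof1 and Ubtf, which drive ribosomal RNA transcription, fell by 1.50 and 1.25, and Fbl and Dkc1, which modify ribosomal RNA, by 1.32 and 1.16. Ncl had 38421, 37381 and 22988 normalized counts in +Dox and 16022 and 19121 in -Dox (-0.91, adjusted p = 0.0642), and Polr1b did not pass (-0.53). None of the 4 passed without -Dox replicate 1, without -Dox replicate 2 or without +Dox replicate 2, while 8 fell without +Dox replicate 3. Of 9 tested polyamine genes 0 passed in edgeR's test or in DESeq2, with 1 at an unadjusted edgeR p under 0.05, and Odc1 and Srm both had a log2 fold change of -0.33. Amd1 is listed at 0.

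Microtubule genes changed in both directions, and more of them rose. Of 25 tested members 10 rose and 3 fell (40% and 12%), against 7.53% and 7.17% of all tested genes. Dclk1, a microtubule-binding kinase of the doublecortin family, had 1756, 1867 and 1153 normalized counts in +Dox and 106626 and 105392 in -Dox (log2 fold change 6.06, SE 0.27, adjusted p = 3.35e-05). Trim55, which links microtubules to the forming sarcomere, had 214, 289 and 253 in +Dox and 9980 and 11005 in -Dox (5.38, adjusted p = 4.08e-05). Map1b, a stabilising protein best known from neurons, had 7313, 6993 and 4094 in +Dox and 145207 and 135321 in -Dox (4.52, adjusted p = 0.000155). Dcx, the founding member of the doublecortin family, also rose (4.82), from 402, 233 and 1.08 to 5481 and 6582. Of the 4 tested neural markers 0 passed.

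Tubulins changed in composition. Tuba1a had 26152, 27790 and 32346 normalized counts in +Dox and 167522 and 156361 in -Dox (log2 fold change 2.49, adjusted p = 0.000208). Tubb2a rose by 2.12, Tubb2b by 1.46, Tubb6 by 1.23 and Tubb3 by 2.70, whereas Tubb4b fell from 23453, 26923 and 27844 to 12055 and 12921 (-1.06, adjusted p = 0.00974). Tubb2a and Tubb2b are near-identical copies, and reads that aligned to both would be among those left out as not unique. Stathmins, which take tubulin out of the polymer, fell: Stmn1 from 11804, 14362 and 21318 to 5613 and 5071 (-1.57) and Stmn2 from 1304, 1082 and 1398 to 128 and 155 (-3.15, adjusted p = 0.00118). Akap6, an anchor of the nuclear envelope where microtubules start in muscle, rose by 2.82, and Map4 had an adjusted p of 0.0379 at 0.92, under the 2-fold threshold. Tubb3 and Dcx did not pass without any 1 library other than +Dox replicate 3, Tubb2b did not without -Dox replicate 1, and Stmn1 and Tubb4b did not without either -Dox library.

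Of 21 tested genes of the nuclear envelope 1 rose and 3 fell (4.76% and 14.3%), against 7.53% and 7.17% of all tested genes. Tmem38a, a potassium channel of the reticulum and nuclear membrane of muscle, had 374, 267 and 364 normalized counts in +Dox and 23743 and 24509 in -Dox (log2 fold change 6.17, adjusted p = 2.63e-05). Both B-type lamins fell: Lmnb1 from 160, 203 and 109 to 1.09 and 13.1 (-4.45, adjusted p = 0.048) and Lmnb2 from 1070, 834 and 899 to 239 and 312 (-1.76, adjusted p = 0.0123). Lmna, the A-type lamin, had 35465, 42111 and 68359 in +Dox and 33446 and 33939 in -Dox (-0.53) and did not pass, nor did Syne1 (2.64, adjusted p = 0.0723). Nrm fell by 1.69. Lmnb1 did not pass without +Dox replicate 1 or 2 or -Dox replicate 1, and Lmnb2 did not without either -Dox library. Without -Dox replicate 1 none of the 3 lower genes passed.

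Junction genes exchanged members. Of 23 tested cadherins, connexins and claudins 5 rose and 5 fell (21.7% in each direction), against 7.53% and 7.17% of all tested genes. Gja5, a connexin of heart conduction tissue, had 0, 0.876 and 0 normalized counts in +Dox and 6777 and 7032 in -Dox. It had 1 read in +Dox against 12660 in -Dox, a ratio of 22000 with a counting interval of 3960 to 871000. Gjd4, another connexin, had 0 in +Dox and 165 and 305 in -Dox, at least 82.7-fold higher. In contrast the connexin Gja1 fell from 31897, 32754 and 33696 to 11920 and 12209 (log2 fold change -1.44, SE 0.17, adjusted p = 0.00214), and Gjc1 fell by 1.69.

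Among cadherins, Cdh6 fell from 12001, 12702 and 4774 normalized counts to 473 and 573 (log2 fold change -4.23, adjusted p = 0.00211) and Cdh4 from 7857, 7057 and 2821 to 382 and 1116 (-2.98). Cdh2 and Cdh15, the cadherins best known from muscle, had log2 fold changes of 0.20 and -0.007 and did not pass. Cdh3 had 1 read in +Dox against 323 in -Dox, a ratio of 562 with a counting interval of 100 to 22300. Cldn1, a claudin of tight junctions, had 0 counts in +Dox and 650 and 514 in -Dox, at least 205-fold higher. Jam2 rose by 1.21. Without -Dox replicate 1, 3 of the 5 higher and 2 of the 5 lower genes passed. Gjc1 did not pass without either -Dox library, Gja1 and Cdh4 did not without -Dox replicate 1, and Gjc1 and Cdh4 did not without +Dox replicate 2. Jam2 did not pass without any 1 library other than +Dox replicate 3, Cdh3 did not without -Dox replicate 1, and Gjd4 did not without -Dox replicate 2.

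**Figure D4:**
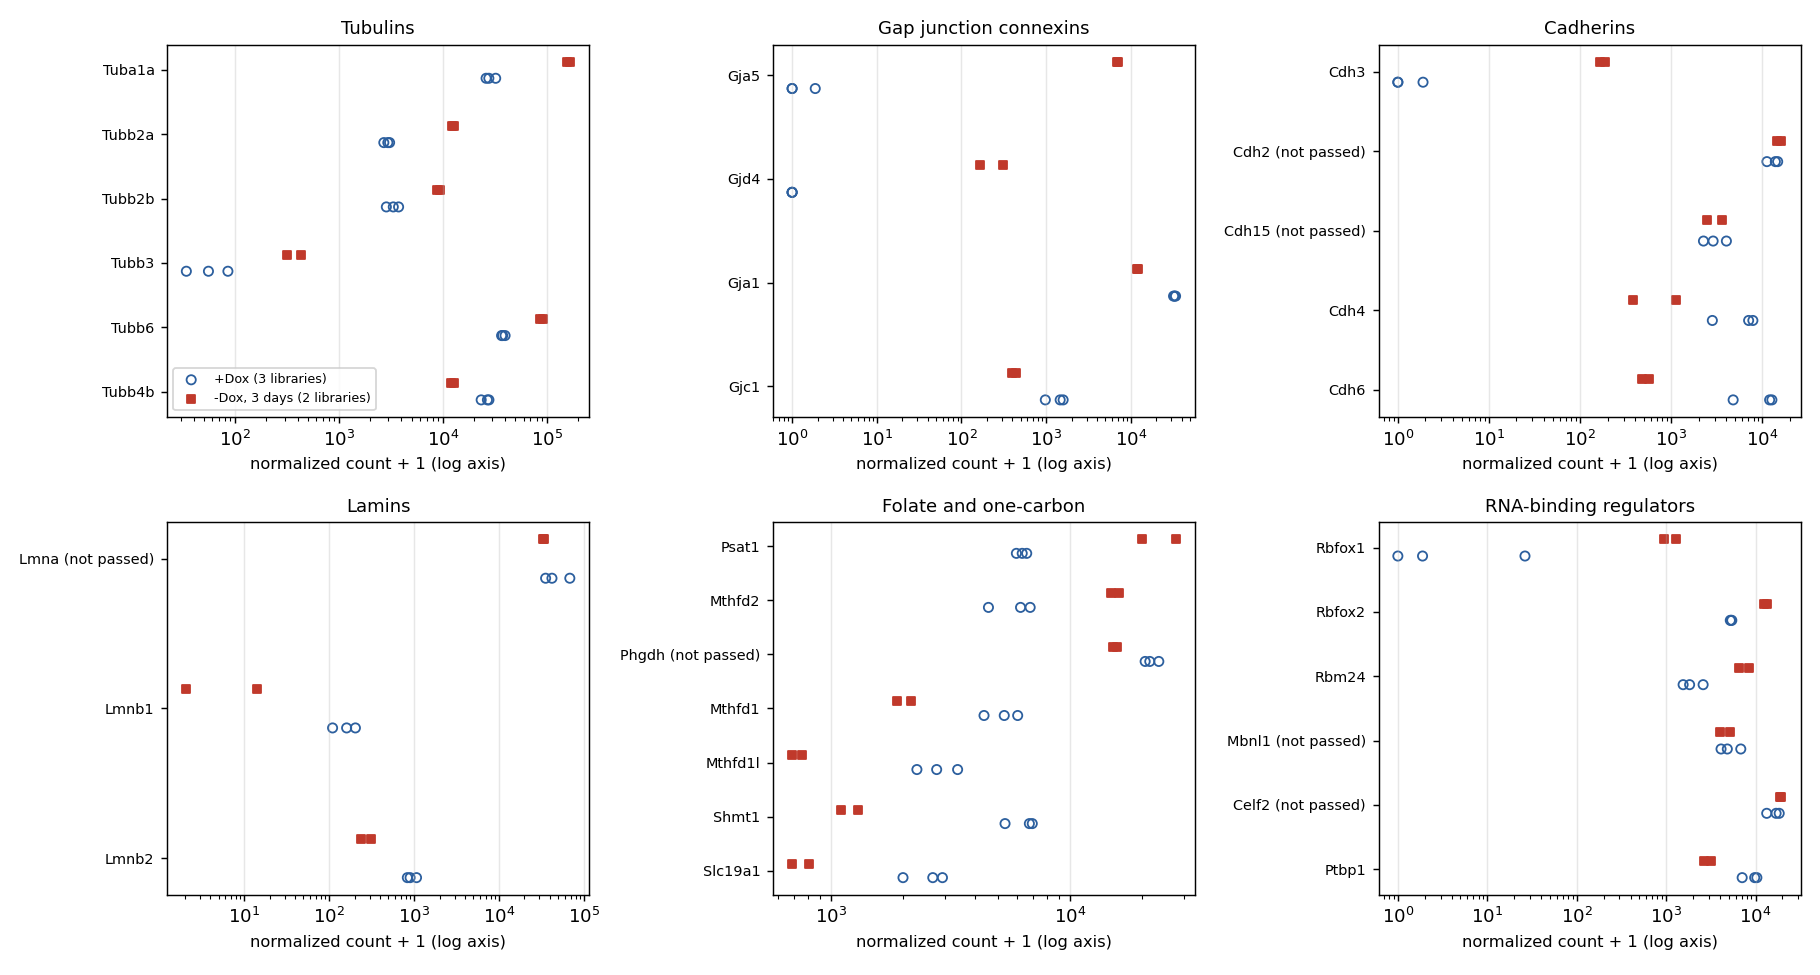
Normalized counts plus 1 (log axis) in each library for members of 6 gene families or pathways. Open circles are the 3 +Dox libraries and filled squares the 2 -Dox libraries. In 5 of the 6 panels some members that passed lie higher and others lower in -Dox. In the panel of lamins Lmnb1 and Lmnb2 lie lower and Lmna did not pass. The members shown were picked with results of these data known, so the number of mixed panels describes that choice.

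Of 24 tested ion channels 3 rose and 2 fell (12.5% and 8.33%), against 7.53% and 7.17% of all tested genes. Scn4a, the sodium channel of muscle fibers, had 27.6, 0 and 1.08 normalized counts in +Dox and 853 and 1255 in -Dox (log2 fold change 6.74, adjusted p = 0.0157), and Kcnn3, a calcium-activated potassium channel, rose from 103, 116 and 120 to 1550 and 908 (3.44). Cacna1c fell from 319, 420 and 325 to 10.9 and 28.4 (-4.16) and Trpv4 from 1083, 1087 and 799 to 206 and 152 (-2.47). Kcnj2 did not pass (4.97, adjusted p = 0.105), Kcnj12 had 0 counts in +Dox and was at least 16.7-fold higher in -Dox, and Clcn1 was too low to test. Scn4a and Kcnj12 did not pass without either -Dox library, nor Kcnj12 without +Dox replicate 1 or 2, and Trpv4 did not without -Dox replicate 2. This list had a median log2 ratio of +Dox replicate 3 to replicates 1 and 2 of -1.22, and 5 members rose without that library.

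Among long non-coding RNAs, Meg3, Rian, Mirg and H19 rose. All 4 are imprinted, as are Airn and Kcnq1ot1, which had log2 fold changes of 1.54 and -0.34 and did not pass. Meg3, Rian and Mirg are neighbours in the Dlk1-Dio3 domain, and H19 belongs to the Igf2 domain. Meg3 (chromosome 12, 110779211 to 110809936 of NCBIM37) had 284, 272 and 370 normalized counts in +Dox and 19534 and 20419 in -Dox (log2 fold change 6.02, SE 0.24, adjusted p = 2.64e-05). Rian had 243, 306 and 269 in +Dox and 15900 and 14470 in -Dox (5.80, SE 0.23, adjusted p = 2.57e-05), and Mirg 24, 63.1 and 75.6 in +Dox and 403 and 520 in -Dox (3.09, adjusted p = 0.016). H19 (chromosome 7, 149761434 to 149764048 of NCBIM37) had 456, 429 and 245 in +Dox and 22557 and 27349 in -Dox (6.05, SE 0.34, adjusted p = 9.23e-05).

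Of all 20 tested long non-coding RNAs 5 rose and 1 fell (25% and 5%), against 7.53% and 7.17% of all tested genes. The list median was -0.31. Mir22hg, host of miR-22, rose by 1.21, and Mir17hg, host of the miR-17 cluster, fell from 1155, 896 and 1181 normalized counts to 400 and 326 (log2 fold change -1.57, adjusted p = 0.0158). Neat1 did not pass, with 6449, 6584 and 2941 in +Dox and 3957 and 3707 in -Dox. Mirg and Mir22hg did not pass without either -Dox library or without +Dox replicate 2, and Mir17hg did not without either -Dox library or without +Dox replicate 1. Meg3, Rian and H19 passed without each library.

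Splicing and RNA-binding regulators changed in both directions, with 5 of 30 tested members that rose and 3 that fell (16.7% and 10%). The shares over all tested genes were 7.53% and 7.17%. Rbfox1, which sets muscle exons, had 0.889, 25.4 and 0 normalized counts in +Dox and 1284 and 954 in -Dox (log2 fold change 6.94, adjusted p = 0.0124). Its paralog Rbfox2 rose from 5428, 5319 and 5221 to 12400 and 13554 (1.29, adjusted p = 0.00397). Rbm24 and Rbm38, both known from muscle, rose by 1.91 and 2.00, and Msi2 by 1.42. Ptbp1, which represses many muscle and neural exons, fell from 9790, 10350 and 7090 to 2681 and 3202 (-1.63, SE 0.25, adjusted p = 0.00657). Rbpms2 fell by 1.74. Esrp2, an epithelial splicing factor, was at 0 in -Dox against 113, 64.8 and 68 in +Dox, at least 25-fold lower. Mbnl1 (-0.21) and Celf2 (0.23) did not pass. Without -Dox replicate 1 only Rbfox2 and without -Dox replicate 2 only Rbm24 of the 5 still passed, and none of the 3 lower genes passed in either fit. Rbm38, Esrp2 and Rbpms2 also did not pass without +Dox replicate 1 or 2.

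Of 21 tested iron and haem genes 3 rose and 2 fell (14.3% and 9.52%), against 7.53% and 7.17% of all tested genes. Mb, the oxygen store of muscle, had 33.8, 34.2 and 6.48 normalized counts in +Dox and 6871 and 6244 in -Dox (log2 fold change 8.01, adjusted p = 0.000342). Hfe2, the hemojuvelin that muscle shares with liver, rose from 76.4, 74.5 and 42.1 to 2396 and 2291 (5.18, adjusted p = 0.000227), and the iron exporter Slc40a1 from 1130, 1025 and 858 to 2699 and 3919 (1.72). Alad, of haem synthesis, fell from 5472, 5827 and 7106 to 1983 and 2010 (-1.62, adjusted p = 0.00438), and Cp, the ferroxidase, by 1.04. The transferrin receptor Tfrc overlapped between conditions and Alas2 was too low to test. Slc40a1 did not pass without -Dox replicate 2, and Alad and Cp did not without either -Dox library, nor Cp without +Dox replicate 1 or 2.

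Signalling receptors showed separate changes rather than whole pathways. Of 10 tested Hedgehog genes 1 rose and 2 fell (10% and 20%), against 7.53% and 7.17% of all tested genes. The co-receptor Boc had 2858, 2505 and 2517 normalized counts in +Dox and 377 and 308 in -Dox (log2 fold change -2.94, SE 0.27, adjusted p = 0.000745), and Gas1, another co-receptor, had 187, 248 and 260 in +Dox and 1195 and 1133 in -Dox (2.33, adjusted p = 0.00337). The co-receptors thus moved in opposite directions. Smo fell by 1.35, but did not pass without any 1 library other than +Dox replicate 3, Ptch1 did not pass (-0.87) and Gli1 is listed at 0.

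Of 12 tested retinoic acid genes 3 rose and 1 fell (25% and 8.33%), against 7.53% and 7.17% of all tested genes. Crabp2, which carries retinoic acid to the nucleus, had 2056, 2325 and 2477 normalized counts in +Dox and 18458 and 18700 in -Dox (log2 fold change 3.02, SE 0.19, adjusted p = 0.000157). Crabp1 had 0 counts in +Dox and 202 and 233 normalized counts in -Dox, at least 76.5-fold higher, and the receptor Rxrg rose by 1.41. Dhrs3, which turns retinal back to retinol, fell by 1.25. Rarb did not pass (2.10, adjusted p = 0.263), and Aldh1a2 and Cyp26b1 were not tested. Crabp1, Rxrg and Dhrs3 did not pass without either -Dox library, nor Dhrs3 without +Dox replicate 1 or 2. Of 17 other nuclear receptors 0 passed in edgeR's test, with 3 at an unadjusted p under 0.05, and Nr3c1 and Thra had log2 fold changes of 0.98 and 0.55, while DESeq2 called 2 of the 17 lower.

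Of 26 tested cytokine receptor genes 1 rose and 2 fell (3.85% and 7.69%), of 24 interferon genes 1 rose (4.17%) and of 12 antigen presentation genes 1 fell (8.33%), against 7.53% higher and 7.17% lower of all tested genes. Osmr, the oncostatin M receptor, rose from 24.9, 13.1 and 57.2 normalized counts to 576 and 472 (log2 fold change 4.05), whereas Il13ra1 fell from 5670, 5676 and 4573 to 1062 and 1477 (-2.06) and Tnfrsf1a by 1.19. Il6st, Lifr and Socs3 did not pass. Ifitm3, a membrane protein that curbs viral entry, rose from 2672, 2785 and 4473 to 16431 and 15078 (2.25, adjusted p = 0.0023), with Isg15 (-0.31) and Ifit1 (-1.30) not passing. H2-T23, a non-classical class I gene of a family of close copies, fell from 1056, 1070 and 1086 to 217 and 221 (-2.29), and B2m, Tap1 and Psmb8 did not pass. Osmr and Tnfrsf1a did not pass without either -Dox library, nor Tnfrsf1a without +Dox replicate 2.

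Of 18 tested complement and coagulation genes 3 rose and 2 fell (16.7% and 11.1%), against 7.53% and 7.17% of all tested genes. Plaur, the urokinase receptor, fell from 25533, 25800 and 19157 normalized counts to 4087 and 4398 (log2 fold change -2.47, SE 0.23, adjusted p = 0.000752), and F2r, the thrombin receptor, from 31365, 28655 and 17638 to 8944 and 9855 (-1.46, adjusted p = 0.0152). Masp1 rose from 532, 511 and 425 to 2279 and 2897 (2.40). Thbd rose by 1.33. F3 (0.86) and Serping1 (-0.32) did not pass, and C3 had at most 1.09 in any library. F2r and Thbd did not pass without either -Dox library or without +Dox replicate 2, nor Thbd without +Dox replicate 1.

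Of 23 tested p53 targets 5 rose and 2 fell (21.7% and 8.7%), against 7.53% and 7.17% of all tested genes. Cdkn1a, the inhibitor by which muscle precursors leave the cycle, had 14627, 14122 and 10665 normalized counts in +Dox and 49733 and 52835 in -Dox (log2 fold change 1.96, adjusted p = 0.0011), and Pmaip1, a death-promoting protein also reached by the stress response, had 93.3, 131 and 263 in +Dox and 3102 and 2468 in -Dox (4.10, adjusted p = 0.00178). Sesn1, Gadd45a and Gadd45g rose by 1.63, 1.58 and 1.47. Mdm2, the feedback target of p53, was lower in every -Dox library without passing (-0.52, adjusted p = 0.0953), Perp fell from 2891, 4342 and 14083 to 859 and 786 (-3.11) and Tnfrsf10b by 1.18. Cdkn1a and Pmaip1 passed without each library, whereas the other 5 did not pass without either -Dox library, and Tnfrsf10b also did not without +Dox replicate 2 or 3. Without +Dox replicate 2, 2 of the 5 higher genes passed, and without replicate 1, 3.

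Among 24 tested Bcl2 family members and caspases 2 rose and 3 fell (8.33% and 12.5%), against 7.53% and 7.17% of all tested genes. Bok fell from 1211, 1427 and 2001 normalized counts to 132 and 159 (log2 fold change -3.41, SE 0.37, adjusted p = 0.00137) and Casp2 by 1.43, while Pmaip1, given above, and Casp12, a caspase of the endoplasmic reticulum, rose, Casp12 from 340, 355 and 60.4 to 1531 and 1450 (2.56, adjusted p = 0.0423). Bcl2 (-0.71) and Bcl2l1 (0.14) did not pass. Casp2 and Casp12 did not pass without any 1 library other than +Dox replicate 3.

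Of 36 tested autophagy and lysosome genes 3 rose and 1 fell (8.33% and 2.78%), against 7.53% and 7.17% of all tested genes. Map1lc3a, of the autophagosome membrane, rose from 795, 749 and 1741 normalized counts to 3317 and 3058 (log2 fold change 1.54), and Atg12 from 3916, 2558 and 2819 to 9452 and 8390 (1.53), with Bnip3 as the other. Tfeb, the transcription factor of lysosomes, fell from 97.8, 107 and 155 to 0 and 1.09 (adjusted p = 0.0141), with 1 read in -Dox against 376 in +Dox, a ratio of 216 with a counting interval of 38.5 to 8550. Ctsd and Sqstm1 did not pass. Without either -Dox library none of the 3 that rose passed, Map1lc3a and Bnip3 did not without +Dox replicate 1 or 2, and Tfeb did not pass without -Dox replicate 1.

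Of 16 tested clock genes 4 rose and 0 fell (25% higher against 7.53% of all tested genes). These were repressors of the loop or its outputs: Bhlhe40 rose from 2307, 1637 and 783 normalized counts to 6654 and 6783 (log2 fold change 2.09), Bhlhe41 from 3002, 3324 and 3223 to 15835 and 11230 (2.09, adjusted p = 0.00126), Ciart by 1.94 and Nfil3 by 1.59. Arntl, Per2 and Dbp had log2 fold changes of 0.10, 0.03 and 0.42 and did not pass. Without either -Dox library only Bhlhe41 passed, Nfil3 and Bhlhe40 did not without +Dox replicate 2, and Ciart did not without +Dox replicate 1. Collection times of the cultures are not given in the sources used here.

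The largest changes were taken by rule, leaving out the genes on the cell cycle and myofiber lists, among genes whose mean in the higher condition reached 1000 normalized counts. Keratins Krt8 and Krt18, which pair into filaments of simple epithelia, fell from 12826, 14504 and 20294 normalized counts to 476 and 744 (log2 fold change -4.70, adjusted p = 0.000357) and from 17262, 17608 and 30326 to 412 and 688 (-5.30, adjusted p = 0.000454). Fgfr2, a receptor for the FGF family, fell from 1825, 2238 and 1725 to 19.6 and 97.3 (-5.04, SE 0.70, adjusted p = 0.00391). The membrane peptidases, Mme and Cpm, had log2 fold changes of -5.54 and -4.43, and Pde1a, which degrades cyclic nucleotides, of -4.73. The cytokine receptor subunit Il18rap (-6.60), Nrsn1 (-4.47), the E2F repressor E2f7 (-4.65) and Cep128 of the centriole (-5.23) fell as well. BC061237 had 2 reads in -Dox against 3298 in +Dox, a ratio of 947 with a counting interval of 262 to 7820, and Gm12603 fell by 4.56. Cpm did not pass without +Dox replicate 1 or 2 or -Dox replicate 2, and Cep128 did not without +Dox replicate 2.

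In the other direction, Tmem182, a membrane protein of muscle, had 0 counts in +Dox and 8217 and 8567 normalized counts in -Dox, at least 2950-fold higher. R3hdml was at least 1280-fold, Mypn, of the sarcomere's Z-disc, at least 898-fold, 2310002L09Rik at least 641-fold, Tmem40 at least 503-fold and Fgf13, which binds sodium channels, at least 366-fold higher on the same floor. Scn3a, a sodium channel best known from the developing brain, had 2 reads in +Dox against 4972 in -Dox, a ratio of 4330 with a counting interval of 1200 to 35800. Tecrl, Ablim3, Ctxn3, Gm14635 and Gja5 each had 1 read over the 3 +Dox libraries, against between 3861 and 14332 in -Dox. Each of the 12 had at most 2 reads over the 3 +Dox libraries.

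Promoter chromatin of these genes was described from peaks of the same cells, called by the authors from ATAC-seq (accessible DNA) and ChIP-seq, with coordinates on mm9. A symbol with a single start in GENCODE M1 was available for 927 of the 999 genes that rose, 873 of the 951 that fell and 11970 of 13259 tested. A peak within 1 kb of the start was counted. In +Dox cells an ATAC peak was present at 79.5% of the genes that would rise, 92.6% of those that would fall after withdrawal and 89.5% of all tested genes. At 3 days after withdrawal these shares were 82.6%, 92.6% and 90.6%. Of the genes that rose, 77.3% had a peak in both conditions and 5.29% only in -Dox, against 88.7% and 1.9% of all tested genes. For most genes that rose the ATAC peak was thus already listed before withdrawal, though less often than over all tested genes. All 22 tested cholesterol genes with a start had an ATAC, H3K27ac and H3K4me3 peak in both conditions and no H3K27me3 peak within 1 kb. Over all tested genes, 88.7% had the ATAC, 68.8% the H3K27ac and 88.8% the H3K4me3 peak in both conditions. No H3K27me3 peak in either condition was found at 84.4%. These are single peak lists, described with no test.

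H3K27ac, a mark of active promoters, was listed at 81.7% of the genes that fell in +Dox and at 61.7% in -Dox, and at 60.2% of the genes that rose in +Dox and 68.5% in -Dox, while over all tested genes it was listed at 76% and 71.9%. A peak only in +Dox was found at 21% of the genes that fell, 3.67% of those that rose and 7.2% of all tested genes, and a peak only in -Dox at 1.03%, 12% and 3.13%. H3K4me3 was listed at 77.6% of the genes that rose in +Dox and 91.5% in -Dox, against 89.2% and 93.1% of all tested genes. The repressive mark H3K27me3 was listed at 21.9% and 15.5% of the genes that rose, against 14.2% and 11.5% of all tested genes. Numbers of peaks differ between the files, with 119528 H3K27ac peaks in +Dox and 90168 in -Dox and 94067 and 214172 for H3K4me3, so shares are read against all tested genes of the same file.

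**Figure D5:**
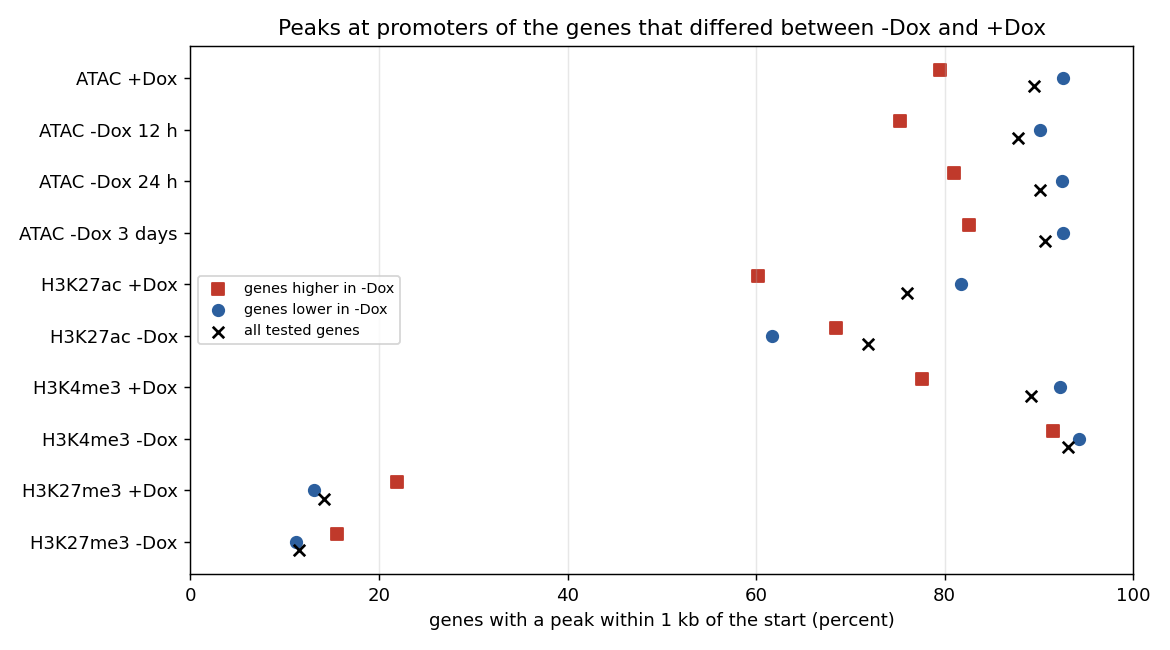
Share of genes (percent) with a peak within 1 kb of their start, for genes higher in -Dox (red squares), genes lower in -Dox (blue circles) and all tested genes (crosses), in each deposited peak list. For H3K27ac the blue circle lies above the cross in +Dox, 81.7% against 76%, and below it in -Dox, 61.7% against 71.9%.

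Pax7 sites, 2455 in number, were set beside the same genes. The authors kept sites found in at least 2 +Dox samples and in no -Dox replicate. A site lay within 50 kb of the start for 155 of the 873 genes that fell (17.8%), 94 of the 927 that rose (10.1%) and 1585 of all 11970 (13.2%). Within 10 kb these shares were 7.67%, 2.48% and 4.21%, and within 100 kb 26.3%, 19.2% and 22.1%. Among the genes named above that fell, a site lay 0.948 kb from the start of Fgfr2, 0.936 kb from that of Idh2, 1.42 kb from Stmn2 and 0.172 kb from Cp. Among those that rose, a site lay 9.19 kb from the start of Atf4 and 10.8 kb from that of Fdps. Within 10 kb, a site lay at 3.7% of the 27 tested ATF4 list genes and 4.55% of the 22 tested cholesterol genes with a start, against 4.21%. Within 50 kb these shares were 18.5% and 18.2%, against 13.2%. A link of either list to Pax7 sites was not tested. Most genes of both directions had none within 100 kb.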

How the data were processed

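RNA-seq had been run on iPax7 cells with Dox and 3 days after its withdrawal, and the authors deposited raw read counts per gene symbol, 1 table per library. The labels name TopHat2 2.0, Bowtie2 2.2 and 2.2.6, Trimmomatic 0.32, HTSeq 0.6 and edgeR as tools and mm9 as the build, without tying each to a data type. Whether strand was used in counting is not given in the sources used here, so reads of overlapping antisense genes cannot be told apart. The rows for reads without a gene were left out, as were 2.0% to 2.3% of reads that were ambiguous between genes and 7.1% to 7.6% that did not align uniquely, by their HTSeq rows. The condition of a library comes from the sample's label. Replicates within a condition are separate only by the deposited files, and whether they were separate cultures is not given.

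Counts were fitted with edgeR 4.0.16 in R 4.3.3 (TMM scaling, filterByExpr with a minimum count of 10, quasi-likelihood test, Benjamini-Hochberg adjustment over all 13259 tested genes), with the 3 +Dox and 2 -Dox libraries and no satellite cell libraries. A gene passed at an adjusted p under 0.05 and at least 2-fold. An exact permutation test of 3 against 2 libraries cannot go below p = 0.1 and was not used. Where a condition had 0 counts, a fold is a lower bound from a floor of 3 counts in each library, and where it had 1 to 3 counts, a ratio with its exact 95% interval, which covers counting error only. Depth, with at least 48203901 counts per library, was similar across libraries.

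The 31 gene lists and the genes named were chosen with earlier results of these data known. By rule, the text names the first 3 symbols of each list and up to 2 members per direction with the largest fold change among those that passed and whose mean in the higher condition reached 100 normalized counts. Over all genes, it names 12 per direction with the largest fold change, no overlap between conditions and a mean that reached 1000 where it was higher, leaving out cell cycle, myofiber and the study's own named genes and symbols of related gene families. Further list members that passed, and members that did not, were named after their values were seen. Some members that count in the lists are not reported here by name. The list symbols Noc2l, Zfas1 and C1s were not matched.

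ATAC-seq peaks had been called by the authors with MACS2 2.0.10 on merged replicates, and the deposited peak lists carry a −log10 q value. ChIP-seq peaks were called with Qeseq and deposited as positions without a score. Peaks were compared with gene starts of GENCODE M1 (NCBIM37, the assembly of mm9). Promoter sequences are from RefSeq on GRCm38.p6, and no coordinate was carried between the builds. Alternatives were DESeq2 1.42.0, other scalings, other filters, no minimum fold, all 8 RNA libraries, a replicate block, each library left out, wider promoter windows, stronger ATAC peaks and other distances to Pax7 sites. Figures were drawn with matplotlib 3.10.9.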

Additional observations from a re-analysis of the deposited data

How the results depend on the processing

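Of 951 lower and 999 higher genes, DESeq2 gave 1389 and 1261, RLE scaling 924 and 1027, upper-quartile scaling 1052 and 942, no filter on low counts 927 and 966, a stricter filter 977 and 978, and no minimum fold 1027 and 1128. A fit of all 8 RNA libraries, satellite cells included, gave 447 and 687. The cause of the lower counts in that fit was not tested. Upper-quartile scaling moved the median log2 fold change of all genes to -0.112, and the other fits gave -0.088 to -0.005. Leaving out 1 library gave between 343 and 1404 lower genes (487 without +Dox replicate 2) and between 420 and 1313 higher genes. The 155 members of the gene lists that passed became between 67 and 187. Without -Dox replicate 1, 42.0% of the 999 higher and 31.5% of the 951 lower genes still passed, and without -Dox replicate 2, 43.2% and 35.8%. These fits have fewer libraries, and 1 -Dox library is then assumed to vary like those of +Dox.

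With the replicate number of the files as a block, 1385 genes were lower, 1223 higher and 192 list members passed. Number 3 exists in +Dox alone, so +Dox replicate 3 adds nothing to the fitted difference in this block fit. The fit without that library gave 1404 lower and 1313 higher genes. Whether the replicate numbers pair the libraries could not be decided. The mean correlation of deviations was -0.0168 between libraries with the same number and 0.0168 between those with different numbers. The -Dox libraries deviate from their own mean by equal and opposite amounts, so the second value mirrors the first and adds no separate measurement.

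With a window of 2.5 kb in place of 1 kb, H3K27ac peaks stood at 83.7% of the lower genes in +Dox and 64.3% in -Dox. The stronger ATAC peaks could be chosen in the ATAC lists alone, since the ChIP-seq lists carry no score. With them, 68.1% of the higher and 87.1% of the lower genes had a peak in +Dox.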
